A study of Homo sapiens with 2 samples.

Results

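Cycling otic epithelial cells are the cells of day 40 human inner ear organoids that carried the otic gene OC90 together with genes of dividing cells. They were chosen by unique molecular identifiers (UMIs, counts of single captured mRNA molecules) in each cell, among cells with at least 1000 genes and at most 15% mitochondrial UMIs. A member had at least 5 UMIs of OC90, fewer than 5 of COL1A2, fewer than 3 of CDH19, and at least 3 UMIs summed over MKI67, TOP2A and UBE2C. The rule found 1197 members among 31818 cells kept, 925 in the GelNB-CH library and 272 in the Matrigel library. Another 8274 cells (6228 in GelNB-CH and 2046 in Matrigel) met the otic conditions with at most 2 UMIs of the cycling genes, and are called other otic cells.

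OC90 encodes otoconin-90, a secreted protein of the otic vesicle and of otoconia, the mineral grains of the balance organs. The otic epithelium arises from the otic placode, divides while the vesicle grows, and gives rise to sensory patches and to the non-sensory lining of the inner ear. In a dividing cell, genes for DNA licensing and replication are switched on by E2F factors before S phase, histone genes are expressed with DNA synthesis, and genes for the spindle, the kinetochore and mitotic exit follow in G2 and mitosis. MKI67 coats mitotic chromosomes, TOP2A untangles sister DNA, and UBE2C is the ubiquitin-conjugating enzyme of the anaphase-promoting complex. In the mammalian cochlea, hair cells and supporting cells normally arise from progenitors that leave the cell cycle, with CDKN1B (p27) as a well-known brake.

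Organoids were embedded in GelNB-CH, a light-cured click hydrogel, or in Matrigel, an extract of basement membrane, and 1 library was made from each. Both groups came from WA25 human embryonic stem cells with a SOX2 reporter (line label SOX2nT for GelNB-CH and SOX2nt for Matrigel), and both were sorted for SOX2-ntdTomato-positive cells on day 40. Both received Y27632 at aggregation, then FGF-2, SB-431542, BMP-4 and 2% growth factor-reduced Matrigel on day 0. FGF-2 with LDN193189 followed on day 3, and CHIR99021 was added to them on day 7 and kept in the maturation medium until day 18. The culture text of both libraries describes embedding in GelNB-CH with LAP and PEG4SH on day 11 and 0.02% oDex on day 15, so that the Matrigel embedding is known only from the treatment label and the title. Each embedding has 1 library and so no replicate, no test is possible and no p-value is given. All intervals are 95% intervals that cover counting error only, and a difference between the libraries cannot be told apart from a difference between these 2 preparations.

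The libraries held 21743 barcodes and 247006223 UMIs for GelNB-CH, and 10912 barcodes and 178672097 UMIs for Matrigel. Cells kept had a median of 9265 UMIs in GelNB-CH and 14403 in Matrigel. The libraries shared 78 barcode sequences, none of them a member in both. The Scrublet doublet caller marked 14.2% of GelNB-CH barcodes and 6.55% of Matrigel barcodes, with a threshold that it set in each library. Marked cells were kept in the main values.

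Members held more UMIs than other otic cells, and a larger share of them was marked as possible doublets. Their median was 18679 UMIs in GelNB-CH and 27054 in Matrigel, against 10116.5 and 15900.5 UMIs in the other otic cells of those libraries. Scrublet marked 277 of the 925 GelNB-CH members (29.9%) and 13 of the 272 Matrigel members (4.78%), against 10.9% and 3.18% of other otic cells. Over 50000 UMIs were counted in 10 members of GelNB-CH and in 34 of Matrigel, with 138009 as the highest. Where a result was recomputed without the marked cells and changed, it is given both ways. The part of depth and of doublets in the other results was not tested.

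The label was checked against markers fixed for each cell type. The genes of the rule are not evidence, since they chose the cells. MKI67 had at least 1 UMI in 87.8% of GelNB-CH members and 86.4% of Matrigel members, TOP2A in 97.3% and 92.3%, and UBE2C in 90.4% and 83.5%. Outside the rule, EPCAM and SOX10 were near their levels in other otic cells, while 13 of 22 otic identity genes in GelNB-CH and 15 in Matrigel were lower. EPCAM, an epithelial adhesion molecule, was at 318 counts per 1000000 UMIs (CPM, from the summed counts of a group of cells) in GelNB-CH members and 308 CPM in Matrigel members, against 321 and 306 CPM in other otic cells. SOX10, a transcription factor of the otic vesicle and neural crest, was at 73.6 and 81.8 CPM against 71.7 and 81.4 CPM. SOX2, the gene of the reporter used for sorting, had a UMI in 22.7% of GelNB-CH members and 33.8% of Matrigel members.

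Markers of mesenchyme and glia were low in members beside the gates of those cells, but not absent. COL1A2 and CDH19 were capped in members and required in those gates, so this contrast was partly fixed by the choice of cells. No sum was made for the neuron gate and the remaining types had no gate, so their lists here are set beside other otic cells. The 8 cartilage markers, given further below, were not low, at 2684 CPM in GelNB-CH members and 1588 CPM in Matrigel members. The 10 mesenchyme markers summed to 158 CPM in GelNB-CH members and 72.9 CPM in Matrigel members, against 117 and 63.7 CPM in other otic cells and 3757 and 4127 CPM in cells of the COL1A2 gate, and none of the 10 was at 0. The 10 glial markers summed to 244 and 250 CPM in members, against 2917 and 3325 CPM in cells of the CDH19 gate, with none at 0 in members. The 10 neuronal markers summed to 371 CPM in GelNB-CH members and 379 CPM in Matrigel members, close to 407 and 323 CPM in other otic cells. The 10 markers of central nervous system progenitors summed to 108 CPM in GelNB-CH members and 41.4 CPM in Matrigel members, against 80.9 and 38.8 CPM in other otic cells, and NKX2-2 was at 0 in members of both libraries and OLIG1 in those of Matrigel. The 8 keratinocyte markers summed to 138 and 104 CPM in members, against 177 and 154 CPM in other otic cells, with KRT5 at 0 in Matrigel members. The 6 melanocyte markers summed to 23.7 and 23.9 CPM in members, against 23.7 and 19.7 CPM in other otic cells, with TYRP1 at 0 in Matrigel members.

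Cycling cells made up similar shares of the otic gate in the libraries as deposited. The share was 12.9% in GelNB-CH (interval 12.2 to 13.7%, 925 of 7153 cells) and 11.7% in Matrigel (10.5 to 13.1%, 272 of 2318 cells), a ratio of 1.10 (0.971 to 1.25). The same 3 genes gave 15.4% in GelNB-CH and 15.1% in Matrigel among cells of the mesenchyme gate, and 9.09% and 12.4% among cells of the glia gate. Neurons, which do not divide, served as the background of the call. They passed the 3-UMI threshold in 2.21% of GelNB-CH cells and 3.05% of Matrigel cells, at median depths of 7533 and 14661 UMIs, against medians of 10959 and 16807 UMIs in the otic gate. The otic shares lay above that background in both libraries.

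The direction of the library difference in the otic share depended on how depth and doublets were treated. With every cell thinned to 5000 UMIs the share was 9.18% in GelNB-CH and 6.23% in Matrigel, a ratio of 1.47 (1.23 to 1.76), with 1.19% and 1.74% in neurons. This left out 378 shallower otic cells of GelNB-CH and 68 of Matrigel. The gate was applied again to the thinned counts, so it held a redrawn set of 7023 cells in GelNB-CH and 2198 in Matrigel. With marked cells removed the shares were 10.5% and 11.6%, a ratio of 0.904 (0.790 to 1.04). With CENPF, NUSAP1 and CCNB1 in place of the 3 genes they were 15.2% and 17.2%, a ratio of 0.880 (0.793 to 0.978). The cycling share is therefore not called higher in either embedding.

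The share was larger in cells with more UMIs, in both libraries. Among otic-gate cells with 5000 to 10000 UMIs it was 2.67% in GelNB-CH (74 of 2775) and 4.67% in Matrigel (12 of 257). Between 10000 and 20000 UMIs it was 15.6% (441 of 2818) and 4.79% (54 of 1127), and between 20000 and 40000 UMIs it was 32.8% and 20.4%. From 40000 UMIs upward it reached 55.8% in GelNB-CH (43 of 77) and 37.0% in Matrigel (61 of 165). A given number of UMIs is a higher rank in the shallower GelNB-CH library than in Matrigel, so equal bins do not hold like cells.

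**Figure D1:**
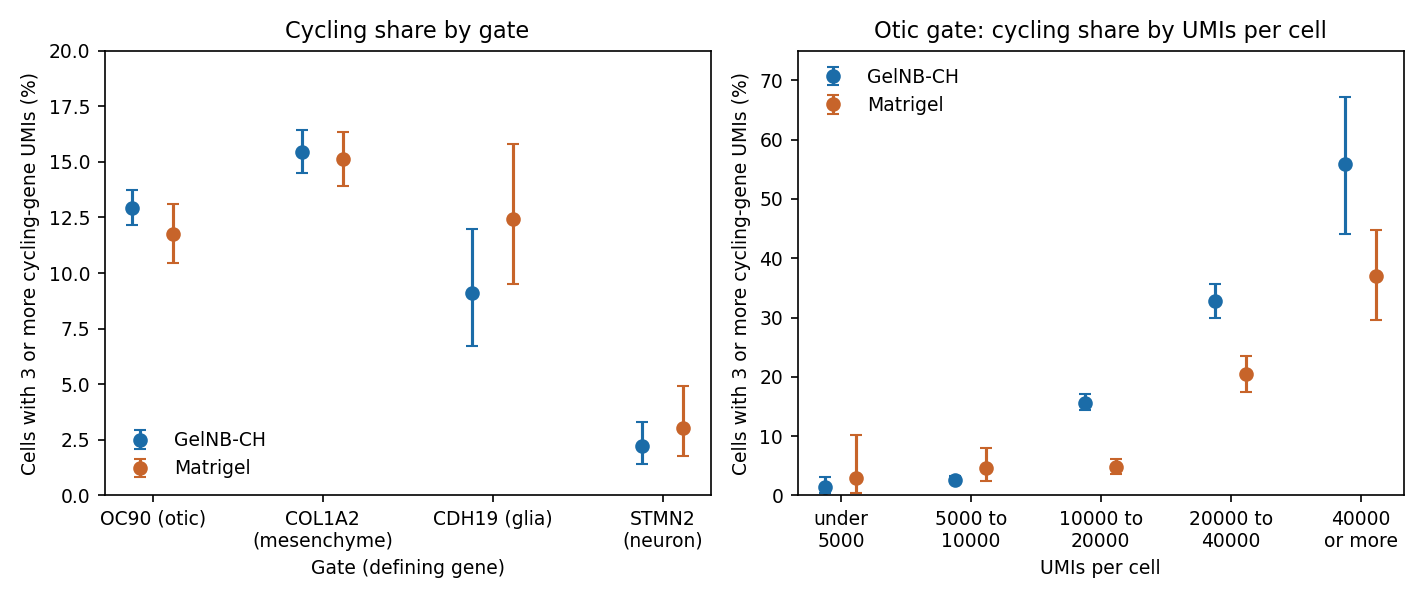
Left, share of cells in each gate with 3 or more UMIs of MKI67, TOP2A and UBE2C in the GelNB-CH and Matrigel libraries, in percent. Right, the same share of otic-gate cells by UMIs per cell. Points are shares and bars are exact 95% binomial intervals. The otic shares of 12.9% and 11.7% have overlapping intervals, and the share in neurons is 2.21% and 3.05%.

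The threshold of 3 UMIs cut through a graded distribution. In GelNB-CH 555 members and in Matrigel 151 members had 12 or more UMIs of the 3 genes. Just inside it, 74 GelNB-CH cells and 34 Matrigel cells had exactly 3 UMIs, and just outside it 139 and 58 cells had exactly 2. In GelNB-CH the cells on either side resembled each other in replication genes, with a median of 36.6 UMIs of the G1/S and S genes per 10000 at 3 cycling UMIs and 30.1 at 2, against 5.36 in cells with none. In Matrigel the same medians were 9.15, 8.88 and 5.68.

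The genes outside the rule with the largest ratios of members to other otic cells were mostly those of the cell cycle. The cells were chosen by counts of the same libraries, so the following ratios of members to other otic cells are descriptions with no test. Of 7272 genes with at least 20 CPM, 315 (4.33%) were at least 2-fold higher in members in both libraries and 3 (0.0413%) at least 2-fold lower. Nothing further is read from those shares. Not all genes higher in members were cell cycle genes, as HES6 and LAMA1 below show. All 101 members of 4 mitotic gene lists were higher in both libraries, with a median log2 ratio of 3.76 in GelNB-CH and 3.69 in Matrigel (list medians here are of log2 of CPM plus 1, over genes with at least 5 CPM in either group), and 98 of them were at least 2-fold higher in each. Over all genes with at least 5 CPM the median was 0.03 and 0.02, and 4.6% of genes in GelNB-CH and 4.13% in Matrigel were at least 2-fold higher. The members of these lists were chosen as genes of cycling cells.

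Genes of the spindle, the kinetochore and cytokinesis were most of the 12 genes outside the rule with the largest ratios, ranked by the smaller ratio of the 2 libraries. CEP55, which recruits the machinery that cuts the bridge between daughter cells, was at 44.9 CPM in GelNB-CH members and 48.8 CPM in Matrigel members, against 0.594 and 0.572 CPM in other otic cells, ratios of 75.7 (56.1 to 105) and 85.4 (55.7 to 138). CKAP2L, a spindle protein, was at 48.7 and 47.3 CPM against 0.673 and 0.546 CPM. The kinesin KIF20A was at 28.3 and 27.6 CPM against 0.370 and 0.390 CPM. AURKB, the kinase of the chromosomal passenger complex, was at 82.6 and 79.9 CPM against 0.924 and 1.30 CPM. PIF1, a DNA helicase, had ratios of 101 in GelNB-CH and 106 in Matrigel. The histone genes HIST1H1B (63.3 and 119) and HIST1H3B (68.1 and 87.1) were also among the 12 genes with the largest ratios. DLGAP5, NEK2, GTSE1, HJURP and ASPM, of spindle and centromere, had ratios between 54.6 and 94.8 in GelNB-CH and between 63.7 and 80.04 in Matrigel. In other otic cells the spindle, kinetochore and cytokinesis genes named here and PIF1 were at 0.356 to 2.97 CPM in GelNB-CH and 0.390 to 2.08 CPM in Matrigel. They are not particular to the otic gate, since the list of 28 spindle and cytokinesis genes summed to 4640 CPM in GelNB-CH members and 4506 CPM in Matrigel members, against 4776 and 6288 CPM in cycling cells of the mesenchyme gate and 6901 and 6265 CPM in those of the glia gate.

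The promoters of MKI67, TOP2A and other cell cycle genes are shown here because cell cycle genes of different phases are known for different promoter elements. The windows run from 250 bases before to 50 bases after the start of each gene and come from RefSeq (GRCh38.p14). Capitals mark matches on either strand to 3 motifs: the cell cycle homology region TTTGAA (CHR), the CCAAT box CCAAT, and the E2F letters TTCCCGC or TTGGCGC. On the opposite strand the first 2 read TTCAAA and ATTGG. The first 4 promoters belong to genes of G2 and mitosis, MKI67 and TOP2A from the rule and the 2 mitotic genes ranked highest by the smaller of their ratios in the 2 libraries. UBE2C, the other cycling gene of the rule, had no entry among the RefSeq promoters and is not shown. The last 2 belong to RRM2, the small subunit of ribonucleotide reductase, and TK1, thymidine kinase, which ranked highest in the replication lists by the same measure.
MKI67, chr10:128126374-128126673, minus strand: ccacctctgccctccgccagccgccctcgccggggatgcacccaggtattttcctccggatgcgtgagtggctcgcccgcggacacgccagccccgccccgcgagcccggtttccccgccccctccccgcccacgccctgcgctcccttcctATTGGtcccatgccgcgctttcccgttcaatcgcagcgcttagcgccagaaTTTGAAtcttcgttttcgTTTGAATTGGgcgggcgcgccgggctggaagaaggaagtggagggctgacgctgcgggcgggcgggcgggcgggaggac
TOP2A, chr17:40417847-40418146, minus strand: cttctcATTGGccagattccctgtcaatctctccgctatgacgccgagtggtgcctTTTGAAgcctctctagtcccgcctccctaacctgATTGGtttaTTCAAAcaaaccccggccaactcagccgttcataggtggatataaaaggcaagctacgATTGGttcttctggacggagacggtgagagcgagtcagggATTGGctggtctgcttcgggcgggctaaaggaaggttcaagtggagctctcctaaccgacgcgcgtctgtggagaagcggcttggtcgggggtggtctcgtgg
CEP55, chr10:93496362-93496661, plus strand: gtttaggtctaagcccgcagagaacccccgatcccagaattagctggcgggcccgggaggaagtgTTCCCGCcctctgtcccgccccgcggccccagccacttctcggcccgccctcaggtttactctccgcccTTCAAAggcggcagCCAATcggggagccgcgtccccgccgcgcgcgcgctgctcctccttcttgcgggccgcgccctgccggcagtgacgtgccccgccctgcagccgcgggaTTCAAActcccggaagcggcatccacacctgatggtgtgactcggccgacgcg
CKAP2L, chr2:112764560-112764859, minus strand: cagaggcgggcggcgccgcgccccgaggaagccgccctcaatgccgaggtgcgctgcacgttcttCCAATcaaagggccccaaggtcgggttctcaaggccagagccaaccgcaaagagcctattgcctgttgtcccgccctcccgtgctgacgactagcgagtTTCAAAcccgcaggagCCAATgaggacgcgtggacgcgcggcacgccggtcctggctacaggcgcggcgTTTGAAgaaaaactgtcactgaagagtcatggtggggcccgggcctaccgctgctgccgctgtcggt
RRM2, chr2:10122489-10122788, plus strand: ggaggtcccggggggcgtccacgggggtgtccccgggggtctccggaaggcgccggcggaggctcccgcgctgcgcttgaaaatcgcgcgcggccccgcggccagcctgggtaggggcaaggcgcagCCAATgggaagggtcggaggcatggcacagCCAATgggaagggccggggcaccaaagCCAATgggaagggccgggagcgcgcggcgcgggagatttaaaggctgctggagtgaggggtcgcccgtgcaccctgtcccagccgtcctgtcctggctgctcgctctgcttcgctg
TK1, chr17:78187155-78187454, minus strand: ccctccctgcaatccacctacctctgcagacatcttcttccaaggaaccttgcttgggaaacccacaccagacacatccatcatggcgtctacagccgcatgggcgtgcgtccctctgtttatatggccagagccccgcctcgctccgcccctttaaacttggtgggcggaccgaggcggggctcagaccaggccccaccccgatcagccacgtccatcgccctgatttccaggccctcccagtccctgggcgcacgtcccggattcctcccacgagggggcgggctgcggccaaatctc

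Each of the 4 mitotic promoters held 2 CHR matches and between 1 and 4 CCAAT matches. In MKI67 a CHR and a CCAAT match overlapped by 1 base, 24 bases before the start. In CEP55 a CHR match spanned the start itself and an E2F match lay 185 bases before it. RRM2 held 3 CCAAT matches and no CHR, and TK1 held none of the letters searched. Of 27305 genes with a promoter in the RefSeq table, 15.4% held a CHR match, 35.7% a CCAAT match, 9.33% an E2F match and 6.08% both CHR and CCAAT. Of the 90 mitotic genes with a promoter (of 104, the rule genes included), 64.4% held CHR, 71.1% CCAAT, 20% E2F and 48.9% both CHR and CCAAT. Of the 45 replication genes with a promoter (of 56), 2.22% held CHR, 57.8% CCAAT and 66.7% E2F. CHR letters were thus more common in the mitotic list than in the replication list, and E2F letters more common in the replication list, with both lists above the share of all genes for E2F. All 15 histone promoters held CCAAT and none held E2F. A match is a description of the letters and not evidence of a bound factor.

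Replication genes were higher in members by smaller ratios. All 56 genes of the G1/S and S lists were higher in both libraries, 49 of them at least 2-fold in each, with a median log2 ratio of 1.81 in GelNB-CH and 1.70 in Matrigel. RRM2 was at 107 CPM in GelNB-CH members and 84.5 CPM in Matrigel members, against 4.39 and 2.70 CPM in other otic cells. TK1 was at 66.9 and 51.0 CPM against 6.11 and 3.85 CPM. MCM2, a subunit of the replicative helicase, was at 18.8 and 16.6 CPM against 6.16 and 6.47 CPM. UNG, which removes uracil from DNA, was nearly level, at 31.6 and 37.6 CPM against 29.8 and 35.5 CPM. Of 17 genes of DNA repair and checkpoints 16 were higher in each library, with medians of 2.35 and 2.14 on the log2 scale, and ATR, a checkpoint kinase, was the exception at 40.4 and 38.9 CPM against 44.2 and 41.8 CPM.

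Replication-dependent histone genes were the list with the widest range. Of 15 with at least 5 CPM, 14 were higher in members in each library, with a median log2 ratio of 3.76 in GelNB-CH and 3.19 in Matrigel. HIST1H4C was at 1487 CPM in GelNB-CH members and 1161 CPM in Matrigel members, against 100 and 104 CPM in other otic cells. HIST1H1B, a linker histone, was at 75.2 and 27.7 CPM against 1.19 and 0.234 CPM. HIST2H2BE was the exception, at 6.91 and 4.15 CPM against 7.72 and 6.37 CPM. Most histone mRNAs lack a poly(A) tail, which this 3′ assay captures, so these counts are of the polyadenylated fraction. Histone genes are also near-identical copies, and reads may have been assigned among them unevenly.

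Metabolic genes differed less. All 20 genes of sterol synthesis were higher in members in both libraries, with medians of 0.42 in GelNB-CH and 0.32 in Matrigel on the log2 scale. Of 20 genes of nucleotide synthesis, 19 were higher in GelNB-CH and 17 in Matrigel, with medians of 0.63 and 0.54, and RRM2 and TK1 head that list too. Of 18 immediate early genes 17 in GelNB-CH and 16 in Matrigel had at least 5 CPM, and 14 and 13 of those were lower in members. ATF3, a stress-induced factor, was at 64.6 and 117 CPM in members against 130 and 215 CPM.

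**Figure D2:**
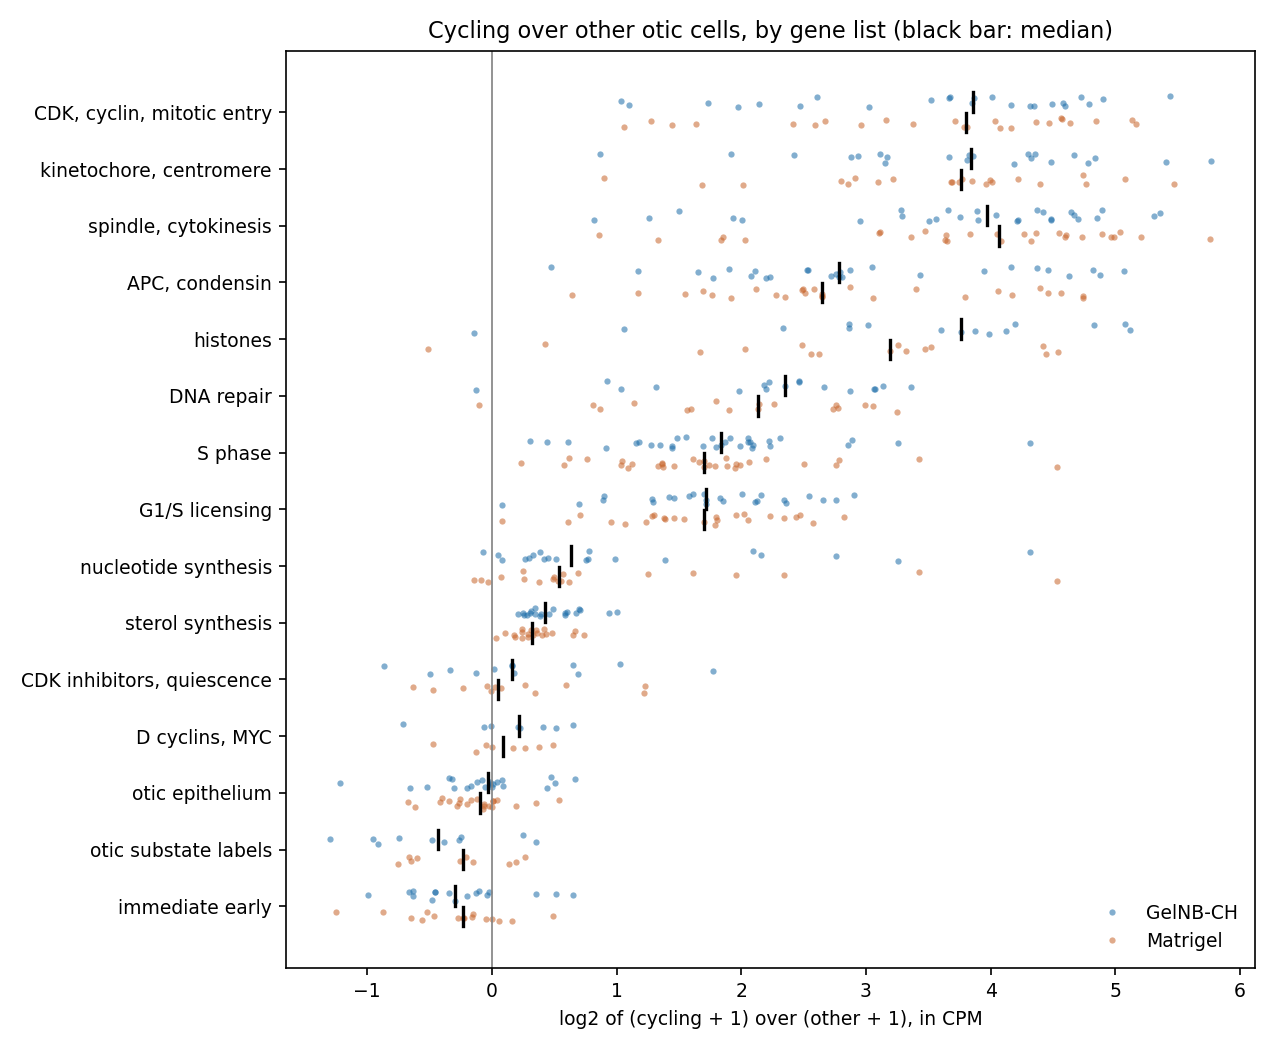
Log2 ratios of members over other otic cells for genes of 15 lists (points, genes with at least 5 CPM), in GelNB-CH and Matrigel, with the list median as a black bar. The mitotic, histone and replication lists lie to the right of 0 and the otic lists around or below it. The lists of sterol and nucleotide synthesis lie between them.

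Among the brakes of the cell cycle, members had less of some and more of others. CDKN1C (p57), a CDK inhibitor, was at 147 CPM in GelNB-CH members and 142 CPM in Matrigel members, against 208 and 198 CPM in other otic cells, ratios of 0.707 and 0.718. BTG2, an antiproliferative gene, was at 65.2 and 96.3 CPM against 119 and 150 CPM. CDKN1B was the other way round, at 45.9 and 45.8 CPM against 28.0 and 30.1 CPM. CDKN2D (p19) was at 17.5 and 16.8 CPM against 8.12 and 6.60 CPM. CDKN2C (p18), which blocks CDK4 and CDK6, was detected in 8.43% of GelNB-CH members and 8.82% of Matrigel members. It rested on 92 and 30 UMIs, and no direction against other otic cells is given for it. RBL1 (p107), an RB relative known as an E2F target, was at 30.5 and 20.5 CPM against 8.25 and 8.21 CPM. RB1 and RBL2 were at 1.12 to 1.28 times their level in other otic cells in both libraries. CDKN1A (p21) was at 6.81 and 5.93 CPM against 3.99 and 6.11 CPM, so that its direction differed between the libraries.

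D cyclins and MYC genes had no common direction. CCND2 was at 105 CPM in GelNB-CH members and 155 CPM in Matrigel members, against 173 and 216 CPM, ratios of 0.608 and 0.719. CCND1 was at 214 and 267 CPM against 215 and 275 CPM. CCND3 had ratios of 1.19 and 1.00. MYC was at 12.1 and 7.94 CPM against 7.32 and 5.38 CPM, and MYCN at 9.69 and 18.5 CPM against 7.06 and 14.0 CPM. CDK4, a partner of the D cyclins, was at 136 and 121 CPM against 95.2 and 101 CPM, and CDK6 at 118 and 84.9 CPM against 102 and 75.3 CPM. MYCL was low in all 4 sums, at 5.45 and 6.64 CPM in members.

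CCND2 also divided the otic gate when each cell was thinned to 5000 UMIs. A CCND2 UMI was found in 35.3% of GelNB-CH members (32.2 to 38.5%) and 46.3% of Matrigel members (40.2 to 52.4%), against 54.8% and 60.8% of other otic cells. The reverse shares counted the cycling genes after thinning, which called 631 of 6775 GelNB-CH cells and 142 of 2250 Matrigel cells cycling. These are fewer than the 920 and 270 members behind the shares above. Cells called in this way were 5.81% of GelNB-CH otic cells with a CCND2 UMI (205 of 3531) and 13.1% of those without (426 of 3244). In Matrigel the same shares were 4.21% and 9.34%, and the intervals did not overlap in either library.

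Otic identity genes lay near their level in other otic cells or below it. Of 22 such genes, 9 were higher and 13 lower in GelNB-CH members, and 7 higher and 15 lower in Matrigel members, with medians of -0.03 and -0.09 on the log2 scale. OC90 itself, which the rule bounds from below, was at 2847 CPM in GelNB-CH members and 2670 CPM in Matrigel members, against 4352 and 3568 CPM in other otic cells. In whole counts OC90 had a median of 49 UMIs per GelNB-CH member and 64 UMIs per Matrigel member, against 44 and 54 UMIs in other otic cells. It was thus lower in members as a share of UMIs but not in whole counts, and members are deeper cells. The floor of 5 UMIs is also a larger share of the UMIs of a shallower cell. PAX2, a transcription factor of the otic vesicle, was at 248 and 347 CPM against 357 and 457 CPM. LMX1A, which marks non-sensory otic epithelium, was at 171 and 170 CPM against 211 and 204 CPM. SPP1 (osteopontin) was at 69.8 and 134 CPM against 164 and 206 CPM. SOX2 was at 20.4 and 22.6 CPM against 12.5 and 19.6 CPM, ratios of 1.63 (1.45 to 1.84) and 1.15 (0.978 to 1.35). HES6, a gene of neuronal and sensory progenitors, was at 42.5 and 41.3 CPM against 19.1 and 20.0 CPM. Among the genes with at least 20 CPM, only PTGDS, prostaglandin D synthase, was lower with both intervals beyond 2-fold, at 22.7 and 27.4 CPM against 71.5 and 77.2 CPM.

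**Figure D3:**
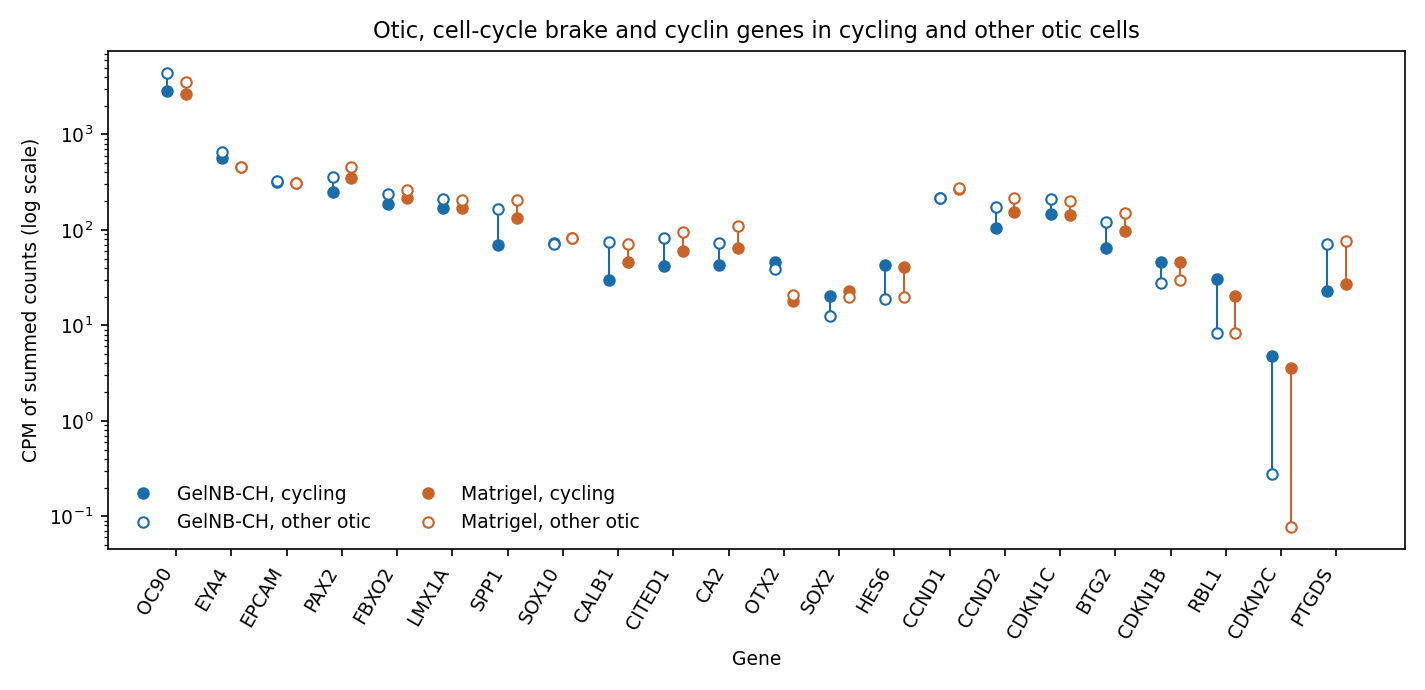
Summed counts (CPM) of 22 otic, cyclin and brake genes in members (filled) and other otic cells (open) of GelNB-CH and Matrigel, on a log axis. EPCAM, SOX10 and CCND1 overlap between members and other otic cells. SPP1, CALB1 and BTG2 are lower in members and HES6 and RBL1 are higher, in both libraries.

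Members were found in each otic substate named by marker genes, at rates that differed beyond their intervals in GelNB-CH but not in Matrigel. The substates carry names that were made on these data, OTX2 GSC, CALB1 WIF1 HMX2, GPC5 IRX3, and NPY CITED1 CA2. The share of thinned cells with an OTX2 UMI was 19.7% of members (17.2 to 22.4%) and 15.5% of other otic cells (14.6 to 16.5%) in GelNB-CH. In Matrigel it was 9.26% and 9.24%. CALB1, a calcium-binding protein, was found in 8.48% of GelNB-CH members and 7.04% of Matrigel members, against 15% and 13.6% of other otic cells, and in 0.706% of GelNB-CH mesenchyme-gate cells, where it should be absent. CITED1, a transcriptional co-regulator, was found in 10.1% of members and 17% of other otic cells in GelNB-CH, and in 17% and 16.3% in Matrigel. GPC5, a glypican, was found in 29.3% of members and 33.9% of other otic cells in GelNB-CH, and in 48.5% and 39.6% in Matrigel. The lower share of CALB1 was thus seen in both libraries, and the differences in OTX2, CITED1 and GPC5 in 1 library each or in opposite directions.

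Assigned to the substate with the most UMIs of its genes and at least 2, members made up 12.8% of OTX2 GSC cells in GelNB-CH (40 of 313) and 4.55% in Matrigel (2 of 44). They made up 5.19% and 4.00% of CALB1 WIF1 HMX2 cells, 7.90% and 7.17% of GPC5 IRX3 cells, and 5.88% and 4.55% of NPY CITED1 CA2 cells. Cells with fewer than 2 UMIs of any substate held 11.6% members in GelNB-CH (371 of 3187) and 6.88% in Matrigel (56 of 814). All of these shares rest on thinned cells and on rule genes counted after thinning. In summed counts CALB1 was at 30.2 CPM in GelNB-CH members and 46.5 CPM in Matrigel members, against 75.5 and 70.9 CPM in other otic cells. CA2, carbonic anhydrase, was at 42.8 and 64.3 CPM against 72.5 and 109 CPM. WIF1, a Wnt inhibitor, was at 4.35 and 13.2 CPM against 6.48 and 21.5 CPM. NPY was at 87.0 and 81.7 CPM against 165 and 97.6 CPM, HMX2 at 14.0 and 10.7 CPM against 10.8 and 9.23 CPM, and IRX3 at 87.0 and 167 CPM against 105 and 186 CPM.

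Members ranged from mostly replication UMIs to mostly late mitotic UMIs. The share planned at first, of members with more UMIs from the 4 mitotic lists than from the G1/S and S lists, was 99.0% in GelNB-CH and 98.9% in Matrigel and did not separate the phases. Neurons, which do not divide, also held medians of 27 and 24 UMIs of those mitotic lists per 5000. A set of 20 late mitotic genes, chosen after seeing this, was used in its place. In cells thinned to 5000 UMIs, 61.1% of GelNB-CH members (57.9 to 64.3%) and 51.1% of Matrigel members (45.0 to 57.2%) had more replication than late mitotic UMIs. The late mitotic genes led in 35.8% (32.7 to 39.0%, 329 of 920) and 45.6% (39.5 to 51.7%, 123 of 270). In other otic cells they led in 2.13% and 2.88%. In cycling cells of the mesenchyme gate they led in 32.9% and 53.8%, and in those of the glia gate in 27 of 45 and 22 of 55 cells. Members thus held a smaller late mitotic share in GelNB-CH than in Matrigel, with intervals that did not overlap. This share was not recomputed without marked cells, by depth or at another threshold. Scrublet had marked 29.9% of GelNB-CH members and 4.78% of Matrigel members, and the part of doublets and depth in the difference was not tested.

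**Figure D4:**
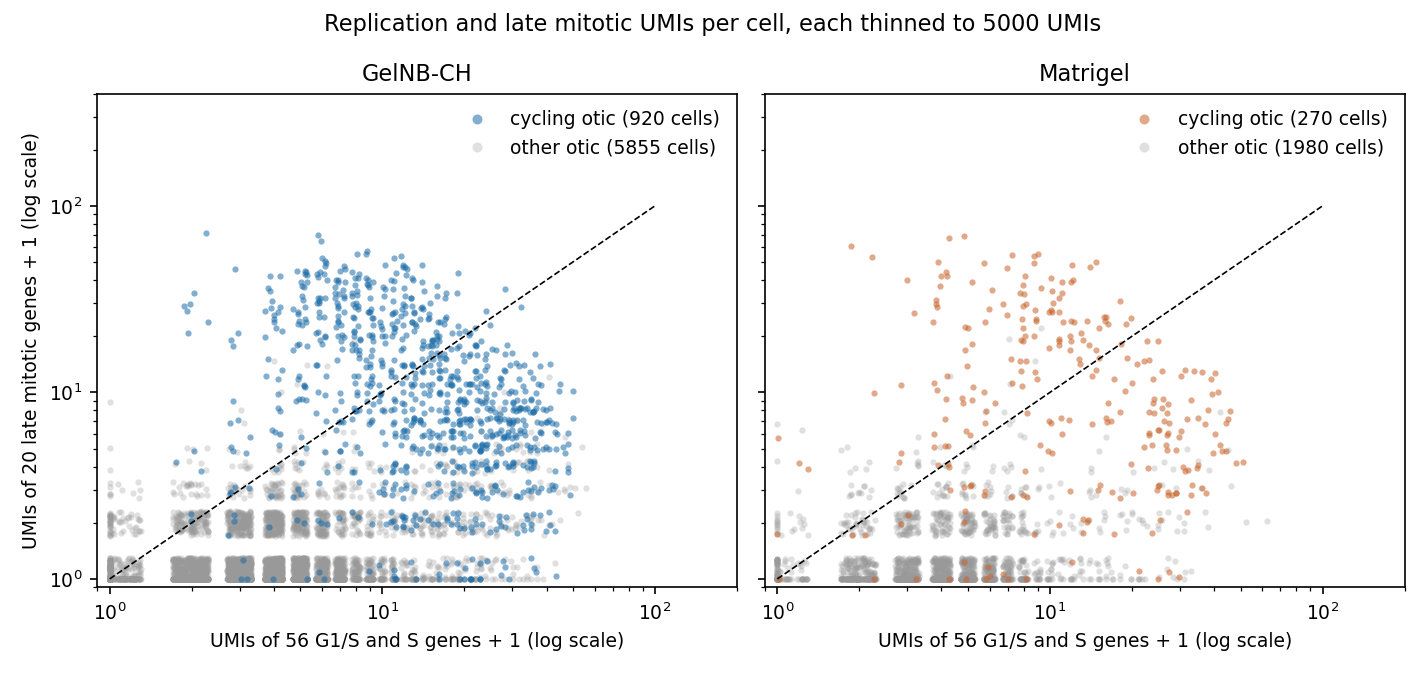
UMIs of 20 late mitotic genes against UMIs of 56 G1/S and S genes per cell, each plus 1 on log axes, in cells thinned to 5000 UMIs of GelNB-CH (left) and Matrigel (right). Members are coloured and other otic cells are grey, points are jittered, and the dashed line marks equal values. Members lie on both sides of the line, 329 of 920 above it in GelNB-CH and 123 of 270 in Matrigel. Other otic cells lie near the bottom, with a median of 0 late mitotic UMIs.

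Cells rich in replication UMIs were also found outside the rule. Among other otic cells, 5.89% in GelNB-CH (345 of 5855) and 6.21% in Matrigel (123 of 1980) had at least as many replication UMIs as the median member, which was 13 and 10 per 5000. The rule, whose 3 genes are of late S phase to mitosis, thus did not take in every otic cell with replication genes at that level.

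The replication-leaning and late mitotic-leaning members were split by these same lists, so the first 2 values here are a description of the split. PCNA, the DNA clamp, was at 170 CPM in replication-leaning GelNB-CH members and 156 CPM in those of Matrigel, against 48.2 and 41.7 CPM in late mitotic-leaning members. CCNB1, the mitotic cyclin, was at 53.3 and 50.9 CPM in replication-leaning members against 388 and 443 CPM in late mitotic-leaning members. Histone genes, which the split did not use, summed to 2848 and 1918 CPM in replication-leaning members, against 2122 and 1465 CPM in late mitotic-leaning members. HMGB2, a chromatin protein, was at 374 and 374 CPM against 900 and 860 CPM. OC90 was at 2713 and 2824 CPM in replication-leaning members and 3077 and 2510 CPM in late mitotic-leaning members. CDKN1C was at 139 CPM in replication-leaning members of both libraries, against 165 and 140 CPM in late mitotic-leaning members.

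Between the libraries, members of GelNB-CH and Matrigel differed in stress and metabolic genes, in histone genes, and in a set of cartilage genes carried by few cells. Of 7648 genes with at least 20 CPM, 114 (1.49%) had a level in GelNB-CH members of at least 2 times that in Matrigel members, and 45 (0.588%) were 2-fold lower or more. In other otic cells 79 of 7324 genes (1.08%) and 39 (0.532%) met the same limits. Of the 114 genes, 56 were also called in other otic cells (49.1% of the members' list and 70.9% of the other list), and 113 had the same direction there. Of the 45 lower genes, 26 were shared (57.8% and 66.7%), and all 45 had the same direction. Most library differences of the members were therefore in the same direction in other otic cells, and both comparisons rest on the same 2 libraries.

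Genes of low oxygen and glycolysis were lower in GelNB-CH members. All 24 genes of the list of 25 that had at least 5 CPM were lower. Their median log2 ratio was -0.73 in members and -0.84 in other otic cells, and over all genes the medians were -0.00 and -0.03. Of the 24, 7 were at least 2-fold lower (29.2%, against 1.26% of all genes with at least 5 CPM). CA9, a classic target of the low-oxygen factor HIF, had 4.5 CPM in GelNB-CH members and 16.2 CPM in Matrigel members. SLC2A1, the glucose transporter GLUT1, had 25.3 and 59.6 CPM, VEGFA, a vessel growth factor, 32.6 and 79.3 CPM, and BNIP3, a mitophagy receptor, 149 and 366 CPM. PGK1, a glycolytic enzyme, was at 162 and 304 CPM. The members with the smallest difference were PKM (322 and 341 CPM) and PGAM1 (78.9 and 84.4 CPM). SLC16A3, the lactate exporter MCT4, was lower by the gene rule too, at 13.1 and 45.3 CPM, a ratio of 0.289 (0.246 to 0.340).

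Targets of ATF4, the factor of the amino acid and stress response, were also lower in GelNB-CH members. Of 16 measured genes of a list of 18, 15 were lower, and 8 of those by at least 2-fold. The list median was -0.94 in members and -1.03 in other otic cells on the log2 scale. ATF5 was at 38.6 CPM in GelNB-CH members and 140 CPM in Matrigel members, a ratio of 0.276 (0.251 to 0.303), and had a UMI in 38.8% and 63.6% of them. STC2 was at 7.44 and 25.3 CPM, CHAC1, which degrades glutathione, at 3.77 and 13.0 CPM, and MTHFD2, of mitochondrial folate metabolism, at 65.8 and 122 CPM. NUPR1 was the exception at 12.8 and 10.8 CPM, and was lower in GelNB-CH in other otic cells, at 12.7 and 24.7 CPM. With marked cells removed the medians of the hypoxia and ATF4 lists were -0.73 and -1.02. In members with 10000 to 20000 UMIs they were nearer to 0, at -0.58 and -0.40. In replication-leaning members they were at -0.74 and -0.88, and in late mitotic-leaning members at -0.55 and -0.97.

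Histone genes were higher in GelNB-CH members. Of 15 measured genes 14 were higher, 6 of them at least 2-fold (40%, against 2.26% of all genes), with a median log2 ratio of 0.85. In other otic cells 8 of the list had at least 5 CPM, with a median of 0.18, and since these are not the same genes the 2 medians are not compared. The library ratio there was 5.08 for HIST1H1B (2.56 to 11.5), 3.05 for HIST1H3B (1.64 to 6.17) and 3.07 for HIST1H3D (2.20 to 4.39), from 9, 12 and 41 UMIs in Matrigel. HIST1H3D was at 73.4 CPM in GelNB-CH members and 17.9 CPM in Matrigel members, a ratio of 4.10 (3.46 to 4.88), and was found in 56.9% and 26.8% of them. HIST1H1A was at 437 and 186 CPM, HIST1H1B at 75.2 and 27.7 CPM, and HIST1H3B at 64.7 and 27.1 CPM. HIST1H4C, the most counted, was at 1487 and 1161 CPM, and HIST1H2AJ was lower, at 8.28 and 10.6 CPM. The difference was present on both sides of that split, with medians of 0.83 in replication-leaning and 0.72 in late mitotic-leaning members. It was 0.92 with marked cells removed, 1.39 in members with 10000 to 20000 UMIs and 0.41 in members with an OTX2 UMI. Members of the libraries also differed in the share of replication-leaning cells, as given above.

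Other cycle lists had medians nearer to 0, which moved with the choice of cells. The G1/S and S genes were higher in GelNB-CH in 47 of 56 cases, with a median of 0.18 and none at least 2-fold. CLSPN, a replication checkpoint adaptor, was at 108 CPM in GelNB-CH members and 73.0 CPM in Matrigel members, and MCM10 at 37.7 and 26.9 CPM. The 101 mitotic genes had a median of 0.06, with 68 higher and 33 lower and none at least 2-fold. AURKA, a spindle pole kinase, was at 51.6 CPM in GelNB-CH members and 70.3 CPM in Matrigel members, and CCNB1 at 169 and 219 CPM, while NCAPH, a condensin subunit, was at 42.2 and 31.2 CPM. The G1/S and S median was 0.35 with marked cells removed and 0.73 in members with 10000 to 20000 UMIs, and the mitotic median was 0.22 and 0.29 in those settings and -0.20 in members with an OTX2 UMI. DNA repair genes were higher in GelNB-CH in 15 of 17 cases, with a median of 0.31, and BRCA1 was at 64.3 and 44.0 CPM.

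Heat shock, sterol and immediate early genes differed by less than the stress lists. Of 13 heat shock genes 10 were higher in GelNB-CH members, with a median of 0.32 in members and 0.31 in other otic cells. HSPA1A, an inducible chaperone, was at 155 CPM in GelNB-CH members and 62.5 CPM in Matrigel members. Sterol genes were higher in 18 of 20 cases with a median of 0.26, and SQLE was at 216 and 154 CPM. Immediate early genes were lower in 13 of 17 cases with a median of -0.23. KLF2 went against the list at 16.8 and 4.98 CPM, and FOS, at 332 and 525 CPM, was with it. Of 13 genes encoded by mitochondria 9 were higher, with a median of 0.25, from MT-ATP8 at 58.8 and 120 CPM to MT-CO2 at 2911 and 1521 CPM.

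**Figure D5:**
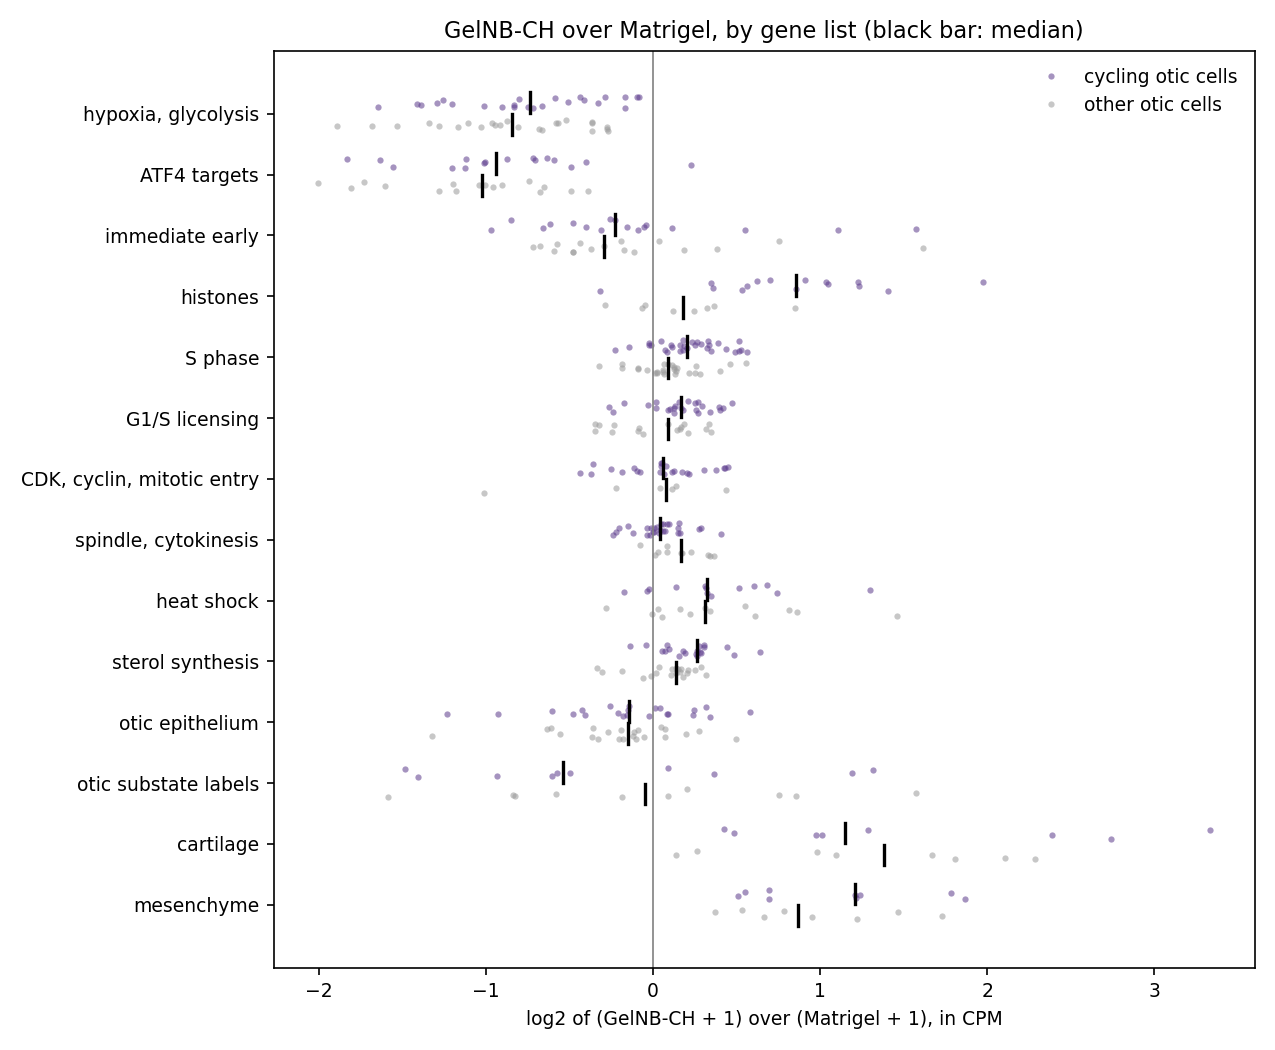
Log2 ratios of GelNB-CH over Matrigel for genes of 14 lists (points, genes with at least 5 CPM) in members and in other otic cells, with the list median as a black bar. The hypoxia and ATF4 lists lie left of 0 in both kinds of cell, at -0.73 and -0.94 in members. The histone medians of 0.85 in members and 0.18 in other otic cells are over 15 and 8 genes.

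Several of the genes with the largest ratios of GelNB-CH to Matrigel were genes of cartilage matrix held by a small number of cells. ACAN, the proteoglycan aggrecan, was at 48.6 CPM in GelNB-CH members and 3.91 CPM in Matrigel members, a ratio of 12.4 (8.77 to 18.1). HAPLN1, a link protein of that matrix, was at 104 and 14.7 CPM, and MATN1, a matrilin, at 84.3 and 15.3 CPM. EPYC, a small proteoglycan, was at 92.2 and 20.5 CPM. ACAN had a UMI in 10.9% of GelNB-CH members and 4.78% of Matrigel members, and the 5% of GelNB-CH members with the most ACAN held 86.8% of its UMIs. All 8 cartilage markers were higher in GelNB-CH members, with a median log2 ratio of 1.15. They summed to 2684 CPM in GelNB-CH members and 1588 CPM in Matrigel members, against 2281 and 1585 CPM in other otic cells and 3578 and 3752 CPM in the mesenchyme gate, with none at 0. Several of them, such as COL2A1, are also genes of otic epithelium. All 9 measured mesenchyme markers were higher in GelNB-CH members, with a median of 1.21. Scrublet had marked 29.9% of GelNB-CH members and 4.78% of Matrigel members. The part of marked cells in the mesenchyme markers was not tested.

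In GelNB-CH, the members richest in the cartilage matrix genes were mostly ones that Scrublet marked. Of GelNB-CH members, 75 (8.11%) had at least 5 UMIs of ACAN, HAPLN1 and MATN1 together, and 67 of the 75 (89.3%) were marked. In Matrigel there were 4 such members, 2 of them marked. With marked cells removed, the GelNB-CH to Matrigel ratio was 1.72 for ACAN, 2.09 for HAPLN1, 1.13 for MATN1 and 1.35 for EPYC, and the median log2 ratio of the cartilage list was 0.37. PAPSS2, which makes the sulfate donor for such matrix, was at 30.1 CPM in GelNB-CH members and 7.35 CPM in Matrigel members, and its ratio was 1.73 with marked cells removed. The part of other cells in these genes was not tested. HES5, a Notch target that also marks neural progenitors, was at 56.7 and 13.6 CPM, with 89.8% of its UMIs in the top 5% of GelNB-CH members and a ratio of 1.94 with marked cells removed.

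Other genes higher in GelNB-CH members were at least 2-fold higher with and without marked cells, although KCNQ5 and LINC00461 had smaller ratios without them. ANOS1, a secreted protein first known from Kallmann syndrome, was at 39.2 CPM in GelNB-CH members and 6.64 CPM in Matrigel members, with a UMI in 34.2% and 10.7% of them, and its ratio was 5.90, or 6.23 with marked cells removed. COL21A1, a collagen, was at 26.8 and 5.45 CPM, with a ratio of 4.92 both ways. CSMD1 was at 71.5 and 16.6 CPM, ratios of 4.31 and 4.63 without marked cells, and KCNQ5, a potassium channel, at 52.1 and 9.84 CPM, ratios of 5.30 and 3.82. The noncoding RNA LINC00461 was at 26.2 and 6.40 CPM, ratios of 4.10 and 2.74. In other otic cells ANOS1 was at 40.5 and 9.93 CPM, a ratio of 4.07 (3.66 to 4.54). COL21A1 was at 27.8 and 7.12 CPM there, a ratio of 3.90 (3.44 to 4.44). Both differences were thus in the same direction in other otic cells, with smaller ratios than in members.

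Genes lower in GelNB-CH members included several that rested on a few cells. NEUROD1, a neuronal transcription factor, was at 6.02 CPM in GelNB-CH members and 22.6 CPM in Matrigel members, from 22 and 19 cells, and 97.4% of its Matrigel UMIs lay in the top 5% of cells. THSD7B was at 34.6 and 97.6 CPM, and 1 Matrigel cell held 381 of its 823 UMIs. ANKFN1 was at 16.2 and 44.7 CPM from 35 and 26 cells, and EYS at 10.5 and 34.9 CPM from 71 and 38 cells. Among members with 10000 to 20000 UMIs these 4 ratios were at or above 1, at 1.01 for NEUROD1, 4.55 for THSD7B, 1.07 for ANKFN1 and 1.07 for EYS. ALDH1A3, which makes retinoic acid, was broader, at 63.3 and 186 CPM with a UMI in 37.1% and 59.9% of members, a ratio of 0.341 (0.316 to 0.368). GPC5 was at 281 and 790 CPM, a ratio of 0.356, against 0.559 in other otic cells, where it was at 367 and 657 CPM. Among members with an OTX2 UMI the GPC5 ratio was 1.36. PDZRN4 was at 42.2 and 127 CPM and FAM49A at 15.8 and 46.4 CPM. The antisense transcript NECTIN3-AS1, at 43.7 and 156 CPM, came from 97 and 60 cells. The top 5% of cells held 93.5% of its UMIs in GelNB-CH members and 72.3% in Matrigel members.

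Genes of the otic substates differed between the libraries within members. OTX2, a homeobox factor, was at 46.1 CPM in GelNB-CH members and 17.9 CPM in Matrigel members, GSC at 14.2 and 5.69 CPM, and OTX1 at 16.3 and 4.15 CPM. WIF1 was at 4.35 and 13.2 CPM and IRX3 at 87.0 and 167 CPM. ESPN, an actin-bundling protein of hair bundles, was at 9.06 and 22.6 CPM, and SPP1 at 69.8 and 134 CPM. JAG1, a Notch ligand of sensory progenitors, was at 136 and 207 CPM. Of the 22 otic identity genes, 9 were higher and 13 lower in GelNB-CH members, with a median of -0.15, and in other otic cells the median was also -0.15.

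ATOH1 and POU4F3, factors of hair cells, were found in very few members, and mostly in the same ones. ATOH1, which starts hair cell differentiation, had a UMI in 4 GelNB-CH members (0.432%, 0.118 to 1.10%) and 2 Matrigel members (0.735%, 0.0892 to 2.63%). In other otic cells it had a UMI in 3 of 6228 cells (0.0482%) and 1 of 2046 (0.0489%), with 1 UMI each. POU4F3, a hair cell factor downstream of ATOH1, was seen in 5 of the 6 cells and in no other member. The other hair cell genes were not confined to them, as MYO7A, a myosin of hair bundles, had a UMI in 6 members of each library. PCP4, a regulator of calmodulin, had 27, 66 and 35 UMIs in the 3 POU4F3-positive cells of GelNB-CH and 71 and 116 UMIs in the 2 of Matrigel. Among other otic cells POU4F3 had 6 UMIs in 2 GelNB-CH cells and 28 UMIs in 3 Matrigel cells. The 6 cells had between 24068 and 86531 UMIs, no STMN2 UMI and 18 to 180 OC90 UMIs, and 2 of them, both in GelNB-CH, were marked by Scrublet. Their cycling UMIs summed to 11 to 36 in GelNB-CH and to 3 and 9 in Matrigel. PCP4 in the summed counts was at 21.6 CPM in GelNB-CH members and 31.3 CPM in Matrigel members, against 23.0 and 9.23 CPM in other otic cells. The part of depth, doublets and free RNA in these 6 cells was not tested.

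Signalling lists differed little between members and other otic cells. Of the measured Notch genes, 11 of 15 in GelNB-CH and 13 of 16 in Matrigel were higher in members, with medians of 0.12 and 0.13 on the log2 scale. HES1 was at 1294 CPM in GelNB-CH members and 1208 CPM in Matrigel members, against 1665 and 1180 CPM, and JAG1 at 136 and 207 CPM against 137 and 202 CPM. Of 12 genes of FGF feedback, all 12 were higher in GelNB-CH members, with a median of 0.35, and 9 of 11 in Matrigel, with 0.18. DUSP6, a phosphatase induced by FGF signalling, was at 28.8 and 26.2 CPM against 14.9 and 17.7 CPM. Wnt feedback genes had medians of -0.02 in both libraries, and AXIN2 was at 11.4 and 13.9 CPM against 12.1 and 12.7 CPM. Targets of YAP and TAZ had medians of 0.17 and 0.16, from CCN2 at 377 and 535 CPM against 541 and 633 CPM to ANKRD1 at 11.4 and 11.7 CPM against 5.25 and 6.03 CPM. Targets of p53 had medians of 0.02 and -0.01. LAMA1, a basement membrane laminin chain, was at 47.2 and 33.8 CPM against 19.7 and 16.0 CPM.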

How the data were processed

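Single-cell RNA was captured with the 10x 3′ v3.1 assay from SOX2-ntdTomato-positive cells of 1 GelNB-CH and 1 Matrigel library. The deposited matrices hold whole UMI counts per gene and barcode, filtered to called cells. Cell Ranger is given as version 7.1.0 per the file headers and as 4.0.0 per the labels' protocols, and the submitters' processing notes name GRCh38. Medians of 9265 and 14403 UMIs per kept cell set the precision.

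Cells were kept with at least 1000 genes and at most 15% mitochondrial UMIs, and gated on UMIs of named genes. Mesenchyme, glia and neuron gates used COL1A2, CDH19 and at least 5 UMIs of STMN2. Counts were summed per library and group and divided by the total (CPM). Ratios carry exact conditional binomial 95% intervals, shares exact Clopper-Pearson intervals and ratios of shares Katz intervals, all for counting error only, since 1 library per group allows no test. List medians use log2(CPM + 1) and genes with at least 5 CPM, and single genes a larger CPM of at least 20 and a 2-fold limit. Genes named are the 12 with the largest ratios in each direction whose intervals exclude 2-fold (no Y-linked genes and none that are mitochondrial, ribosomal or known by a clone name), the rule genes, SOX2, and the 2 largest and 2 smallest of each list. Further genes were named after their values were seen. The members and lists were chosen with earlier results of these data known, and the substate genes come from names made on these data.

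Thinning drew 5000 UMIs per cell without replacement (seed 1). Doublets were marked with Scrublet (scanpy 1.11.5, expected rate 0.8% per 1000 barcodes), kept in the main values and removed in an alternative. Alternatives also covered TMM scaling (edgeR 4.0.16), CPM minimums, pseudocounts, other cycling genes and thresholds, and depth bins. Scripts ran in R 4.3.3 and Python 3.11.15 with pandas 2.3.3, scipy 1.17.1 and numpy 2.4.6. The ratio and interval code was checked on simulated counts.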

Additional observations from a re-analysis of the deposited data

How the results depend on the processing

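No paired analysis was possible because each embedding had 1 library. Among values that answer a comparison, 105 recomputed values stayed within their limit and 51 moved. Among single genes and lists 494 stayed, 130 moved and 10 reversed. A value could count as reversed only if its main value was clear of no difference by a set margin or by its interval. The share ratio (1.10) and the mitotic median (0.06) were not, so their changes of direction count as moved. With Scrublet-marked cells removed, the cycling share was 10.46% in GelNB-CH and the ratio of GelNB-CH to Matrigel 0.904, the G1/S and S median 0.35, the mitotic median 0.22, and 7 genes were 2-fold lower in members than in other otic cells. With at least 5 cycling UMIs the shares were 11.16% and 9.36%, the same medians 0.12 and -0.011, and 99.75% of GelNB-CH members leaned to the mitotic lists. With at least 2 UMIs the shares were 14.9% and 14.2%. With CENPF, NUSAP1 and CCNB1 they were 15.15% and 17.2%, a ratio of 0.880. Thinned, they were 9.18% and 6.23%, a ratio of 1.47.

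Among cells with 10000 to 20000 UMIs the shares were 15.65% and 4.79%, a ratio of 3.27. There 260 genes were higher and 126 lower in GelNB-CH members, 41 were lower in members than in other otic cells, and the medians were -0.40 for ATF4 targets, 1.39 for histones, 0.73 for G1/S and S and 0.29 for mitotic genes. The ratios of NEUROD1 (1.01), EYS (1.07), THSD7B (4.55) and ANKFN1 (1.07) reversed. In members with an OTX2 UMI the medians were 0.41 for histones, 0.084 for G1/S and S and -0.20 for mitotic genes, and EYS (1.01), FAM49A (1.08), THSD7B (1.56), GPC5 (1.36) and ANKFN1 (1.09) reversed. With OTX2 at 0 the mitotic median was 0.14. Against cells with no cycling UMI the G1/S and S medians were 2.09 in GelNB-CH and 1.92 in Matrigel, and the mitotic median was 4.12 in GelNB-CH. The cause of these shifts was not tested.

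A minimum of 10 CPM gave 177 genes higher and 82 lower in GelNB-CH members, and 50 CPM gave 46 and 21, with 164 genes higher in members than in other otic cells. With a pseudocount of 5 CPM the ratios of members to other otic cells had medians of 1.43 and 1.31 for G1/S and S, 2.81 and 2.76 for mitotic genes and 2.77 and 1.91 for histones, in GelNB-CH and Matrigel. Without thinning 99.89% and 100% of members leaned to the mitotic lists. The TMM factors were 0.982 and 1.02. Chosen after seeing the data, the 20 late mitotic genes gave 35.8% and 45.6%. Also added then, members with no UMI of ACAN, HAPLN1 or MATN1 (740 and 234 cells) had a G1/S and S median of 0.30. Their cartilage median was counted as reversed, at -0.093. Those 3 of the 8 cartilage genes chose the cells and had no UMI in them, so they fell out of this median. It is therefore not compared with the median over all 8 genes, and no conclusion is drawn from it. A first version of that setting used CNMD in place of HAPLN1 and was replaced because most members carry CNMD. Depth limits the rare genes most: shares of 2 to 4 cells carry wide intervals.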

Other observations

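Some gene groups differed between members and other otic cells in 1 library more than in the other. Of 9 measured neuronal markers, 3 were higher in GelNB-CH members and all 9 in Matrigel members, with medians of -0.07 and 0.53 on the log2 scale relative to other otic cells. Of 4 measured keratinocyte markers, 1 was higher in GelNB-CH members and none in Matrigel members, where 3 were at least 2-fold lower. Chaperones of the endoplasmic reticulum were higher in GelNB-CH than in Matrigel in 12 of 16 cases in members, with a median of 0.16, and in 13 of 16 in other otic cells, with 0.23. Basement membrane genes had a median of -0.00 in members between the libraries. These lists were looked at after their values were known, and no test of them is possible.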
